A study of Mus musculus with 27 samples.

Results

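The heartbeat is fired and passed on by ion channels, pumps and gap junctions of the muscle cell membrane, and 31 genes for cardiac ion channels and connexins were examined for loss of histone H3 lysine 4 (H3K4) methylation in hearts with *Kmt2d* deleted from their muscle cells. The 31 genes were chosen by name and function, with earlier results of these data known, out of 22367 protein-coding genes. They comprised the voltage-gated sodium channel subunit *Scn4b*, the calcium channel genes *Cacna1c*, *Cacna1d*, *Cacna1g*, *Cacna1h*, *Cacnb2*, *Cacna2d1* and *Cacna2d2*, genes for potassium channels and their subunits, the pacemaker channels *Hcn2* and *Hcn4*, the connexins *Gja1*, *Gja5* and *Gjc1*, and the cation channels *Trpm4* and *Trpm7*. A region was assigned to a gene if it overlapped, by at least 1 bp, the gene body or the 5 kb on either side of a transcription start site (TSS) of that gene, and this gave 916 regions of 358833, none of them shared between members. All 31 genes had at least 1 region, as did 20025 of the 22367 protein-coding genes.

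The study used chromatin immunoprecipitation and sequencing (ChIP-Seq) on whole mouse hearts at embryonic day E11.5 to compare H3K4me1, H3K4me2 and H3K4me3, the mono-, di- and trimethylated forms of this lysine, between 2 genotypes on the C57BL/6 strain. Control hearts were *Tnnt2::Cre; Kmt2d fl/+* and mutant hearts were *Tnnt2::Cre; Kmt2d fl/fl*. For each genotype 3 pools of 30 hearts were made, each giving an input library and 1 immunoprecipitation per mark with 3 µg of antibody. Of the 27 libraries, 24 came from these hearts, and 3 KMT2D ChIP-Exo libraries from cardiomyocytes were not analysed here. Both genotypes carried the Cre transgene, the *mTmG* reporter and at least 1 floxed *Kmt2d* allele, so no group was free of Cre. Cre made from the *Tnnt2* promoter acts in heart muscle cells, and the endothelial, epicardial and blood cells of the heart retain *Kmt2d*. In whole hearts, fewer cells of a type and less of a mark per cell cannot be told apart.

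The authors' calls came as 3 lists, the merged list of regions with any of the 3 marks, and those of its regions with lower H3K4me1 or lower H3K4me2 in mutant hearts at their false discovery rate. Each list gave only the position of a region, with no read count, fold change or *P* value, so the depth is unknown, no value per pool could be shown and no test over pools could be run. A region in a decreased list is called "decreased" here, and a region outside it may still have changed. Positions are on mouse assembly NCBIM37 (mm9), counted from 1, with GENCODE vM1 gene models.

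KMT2D is an H3K4 methyltransferase, best known for mono- and dimethylation at enhancers, the distant DNA elements that raise transcription of a gene, and H3K4me2 also covers active promoters. In heart muscle, sodium current starts the action potential, L-type calcium current sustains it and triggers contraction, potassium currents end it and hold the resting potential, pacemaker and T-type calcium currents set the rate, and connexin pores carry the impulse from cell to cell. The comparison asked in which of these genes, and where in them, regions lost H3K4me1 or H3K4me2 in mutant hearts.

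The DNA of a few of these regions is shown first. The 250 bases before a TSS are given, on the strand of the gene, for 4 genes whose TSS lay inside a decreased H3K4me2 region, the widest such region of its functional group being taken first. They were *Kcnh2* (chr5:23857423-23857672, minus strand), *Kcnj8* (chr6:142519877-142520126, minus strand), *Trpm7* (chr2:126701967-126702216, minus strand) and, before an internal TSS, *Cacnb2* (chr2:14745469-14745718, plus strand). Capitals mark matches, on either strand, to motifs known from heart factors and core promoters. The motif of NKX2-5, a homeobox factor of heart muscle, was searched as AAGTGG and in another form, CACTTGA, which does not contain AAGTGG on either strand. KLF and SP factors, which bind GC-rich promoters, were searched with CACCC. GATA factors were searched with the letters AGATAA, T-box factors with the letters GGTGTGA and TEAD factors, the partners of Yap, with the letters GGAATG. The core promoter element known as the TATA box was searched as the letters TATAAA.
Kcnh2 upstream: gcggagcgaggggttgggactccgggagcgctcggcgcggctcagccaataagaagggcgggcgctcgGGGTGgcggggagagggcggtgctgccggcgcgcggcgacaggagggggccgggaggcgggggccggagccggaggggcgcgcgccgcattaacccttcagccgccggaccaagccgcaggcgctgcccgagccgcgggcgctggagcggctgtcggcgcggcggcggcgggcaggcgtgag
Kcnj8 upstream: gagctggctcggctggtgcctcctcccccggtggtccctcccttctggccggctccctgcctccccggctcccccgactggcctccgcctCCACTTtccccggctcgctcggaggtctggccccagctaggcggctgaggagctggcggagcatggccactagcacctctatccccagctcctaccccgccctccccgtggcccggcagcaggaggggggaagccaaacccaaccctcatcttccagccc
Trpm7 upstream: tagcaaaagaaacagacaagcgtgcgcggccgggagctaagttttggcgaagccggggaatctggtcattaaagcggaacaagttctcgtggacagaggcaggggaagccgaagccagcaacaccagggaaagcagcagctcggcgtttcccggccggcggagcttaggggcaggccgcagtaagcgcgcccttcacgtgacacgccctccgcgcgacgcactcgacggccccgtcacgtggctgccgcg
Cacnb2 upstream of an internal TSS: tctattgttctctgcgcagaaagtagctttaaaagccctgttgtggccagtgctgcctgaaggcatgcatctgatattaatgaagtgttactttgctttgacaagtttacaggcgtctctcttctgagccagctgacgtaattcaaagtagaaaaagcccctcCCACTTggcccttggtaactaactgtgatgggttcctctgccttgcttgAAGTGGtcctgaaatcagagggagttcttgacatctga
The *Kcnh2* sequence was 80.0% G or C, held many CG dinucleotides and matched CACCC once, on the other strand, at bases 69 to 73. The *Kcnj8* sequence matched AAGTGG on the other strand at bases 91 to 96. The *Cacnb2* sequence was the poorest in G and C of these at 46.0% and matched AAGTGG at bases 164 to 169, on the other strand, and at bases 213 to 218. No searched motif was found in the *Trpm7* sequence.

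Decreased regions of at most 300 bp, of which there were 3, were short enough to be shown whole, on the plus strand, and the middle 200 bases of the widest decreased H3K4me1 region of *Cacna1c* are added because that gene carried the most such regions. They lay at chr6:118639686-118639745, chr14:31227506-31227785, chr9:58697726-58697965 and chr6:118991096-118991295, all of them intronic. The *Cacna1c* stretch of 200 bases was chosen after the values were seen.
Cacna1c, H3K4me2 region in intron 13: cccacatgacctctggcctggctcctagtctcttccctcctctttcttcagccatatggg
Cacna1d, H3K4me1 region in intron 1: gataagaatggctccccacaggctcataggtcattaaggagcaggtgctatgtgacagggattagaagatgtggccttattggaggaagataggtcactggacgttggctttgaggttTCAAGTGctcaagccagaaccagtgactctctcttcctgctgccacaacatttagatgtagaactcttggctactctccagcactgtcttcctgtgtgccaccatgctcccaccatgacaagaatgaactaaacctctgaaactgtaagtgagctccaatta
Hcn4, region of both lists in intron 2: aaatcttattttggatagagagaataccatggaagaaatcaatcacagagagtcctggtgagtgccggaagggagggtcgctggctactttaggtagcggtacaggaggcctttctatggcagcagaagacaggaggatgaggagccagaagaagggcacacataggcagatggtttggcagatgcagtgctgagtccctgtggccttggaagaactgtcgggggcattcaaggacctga
Cacna1c, centre of the widest H3K4me1 region: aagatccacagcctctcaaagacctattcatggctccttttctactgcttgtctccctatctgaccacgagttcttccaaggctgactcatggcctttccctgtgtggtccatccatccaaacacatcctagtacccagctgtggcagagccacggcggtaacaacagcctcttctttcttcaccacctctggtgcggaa
Only the *Cacna1d* region held a match, CACTTGA on the minus strand at bases 119 to 125. A match is a description of the letters and not evidence that a factor binds there.

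Across the 31 genes, the number of regions ran from 1 in *Kcna5* and *Kcnj11* to 143 in *Cacna1c*, with a median of 9, and the median over the other coding genes with a region was 5. Their total region width ran from 5160 bp in *Kcnj11* to 295040 bp in *Cacna1c*, with a median of 25340 bp against 6520 bp for the other genes. The members were also longer, with a median body of 48568 bp against 18231.5 bp. All 31 had a TSS, and the annotated 5′ end, inside a merged region, where 70.4% of all protein-coding genes had a TSS inside one. Of the 916 regions, 742 were intronic, 93 touched an exon of the gene without a TSS, 47 held a TSS of the gene, 23 lay outside the body near a TSS, 9 held a TSS of another gene and 2 touched an exon of another gene.

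Decreased H3K4me1 was found at 15 of the 31 genes, or 48.4% (Wilson 95% interval 32.0 to 65.2), and 7.08% of all coding genes with a region had one. The Wilson intervals here and below treat genes or regions as independent and cover counting error only. Decreased H3K4me2 was found at 13 of the 31 genes, or 41.9% (26.4 to 59.2), against 28.7% of all coding genes. In either list were 21 members, against a background of 32.9%, with 8 in the H3K4me1 list only, 6 in the H3K4me2 list only, 7 in each and 10 in neither. A region in both lists occurred in *Kcnh2*, *Kcnj11* and *Hcn4*, and 0.529% of coding genes had such a region. At least 3 decreased H3K4me1 regions were held by 7 members, *Cacna1c* (19), *Kcnq1* (5), *Cacna2d2* (4), *Hcn4* (4), *Cacna1h* (3), *Kcnh2* (3) and *Abcc8* (3), against 0.519% of coding genes. Neither this count nor those for either list and for both lists was set beside genes of like region width or number of regions. The members had more of both.

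The share of coding genes with a call was higher at larger total region width, so the members were set beside other coding genes of like total region width, in 10 classes of equal size. Averaged over the classes of the 31 members, 19.9% of those other genes had decreased H3K4me1, which lay under the interval of the members' 48.4%. The matching share for H3K4me2 was 45.5%, inside the interval of the members' 41.9%. The class of the widest totals, 26580 bp or more, held 15 members, of which 11 had decreased H3K4me1 against 33.2% of the other genes in the class, and 7 had decreased H3K4me2 against 53.4%. In the classes under 15300 bp were 11 members, of which *Kcnj11* and *Kcne1* had decreased H3K4me1, and *Scn4b*, *Kcnj8* and *Kcnj11* had decreased H3K4me2. In the classes that held these members, 2.99 to 6.77% of the other genes had decreased H3K4me1 and 30.4 to 40.3% had decreased H3K4me2. The members were longer than most genes, and in 10 classes of gene length, an alternative chosen after seeing the data, the shares of the other genes were 12.98% for H3K4me1 and 35.75% for H3K4me2.

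**Figure D1:**
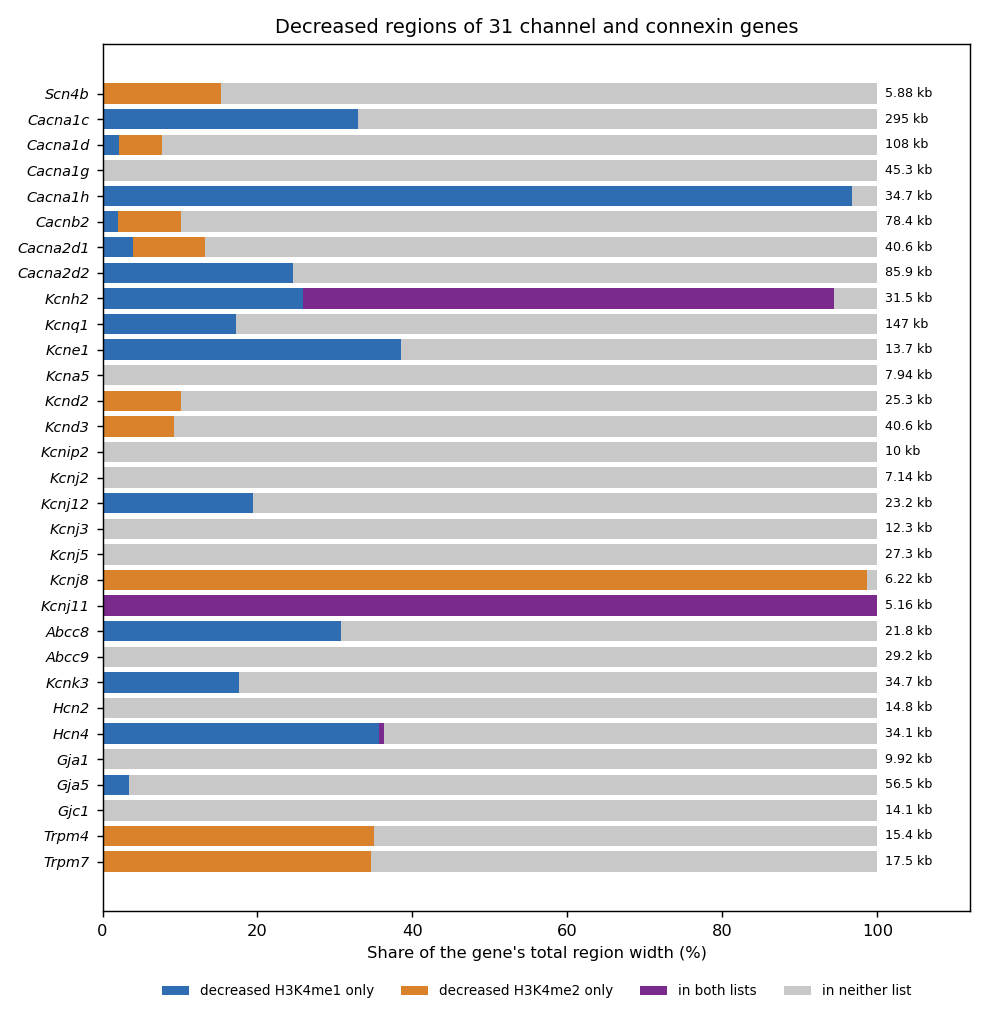
Each bar is 1 of the 31 genes, ordered by role, and the x axis gives the share (%) of its total region width that lay in regions of the decreased H3K4me1 list, the decreased H3K4me2 list, both lists or neither, with the total width printed at the right. *Cacna1h* (96.7% in the H3K4me1 list), *Kcnh2* (94.4%), *Kcnj8* (98.7% in the H3K4me2 list) and *Kcnj11* (100% in both) are coloured nearly or wholly along their length, *Cacna1c* is coloured over 32.9% of its 295 kb, and 10 bars are grey throughout.

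Counted by region, 50 of the 916 member regions were in the decreased H3K4me1 list, or 5.46% (4.17 to 7.12). The share was 0.761% of all merged regions and 0.913% of the 193778 regions of other coding genes. *Cacna1c* alone supplied 19 of the 50, and without it 31 of 773 regions, or 4.01% (2.84 to 5.64), were in the list. In the decreased H3K4me2 list were 16 of the 916, or 1.75% (1.08 to 2.82), against 1.87% of all merged regions and 2.69% of the regions of other coding genes. The counts by region weigh long genes more, and regions of 1 gene are not replicates of each other.

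The share of regions in the lists was higher among wider regions, also in other genes, so regions of like width were set side by side. Among regions of 5000 bp or more, 19 of 59 in the members had decreased H3K4me1, or 32.2% (21.7 to 44.9), against 4.45% in other coding genes, and the share without *Cacna1c* was 25.6% (14.9 to 40.2). Among regions of 2000 to 5000 bp, 21 of 135 had decreased H3K4me1, or 15.6% (10.4 to 22.6), against 2.67%, and without *Cacna1c* 11.4% (6.66 to 18.9). At 500 to 2000 bp, 8 of 285 had decreased H3K4me1, or 2.81% (1.43 to 5.44), against 0.750%. Below 500 bp, 2 of 437 had decreased H3K4me1, or 0.458% (0.126 to 1.65), against 0.370%. For H3K4me2 the members' shares were below those of other genes in the wide regions, 5 of 59, or 8.47% (3.67 to 18.4), against 23.1% at 5000 bp or more, and 6 of 135, or 4.44% (2.05 to 9.36), against 10.3%, at 2000 to 5000 bp. They were 3 of 285, or 1.05% (0.359 to 3.05), against 0.814% at 500 to 2000 bp, and 2 of 437, or 0.458% (0.126 to 1.65), against 0.615% below 500 bp. Without *Cacna1c* the shares of the wide regions were 11.6% (5.07 to 24.5) at 5000 bp or more and 5.71% (2.65 to 11.9) at 2000 to 5000 bp, and both intervals then held the share of other genes.

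**Figure D2:**
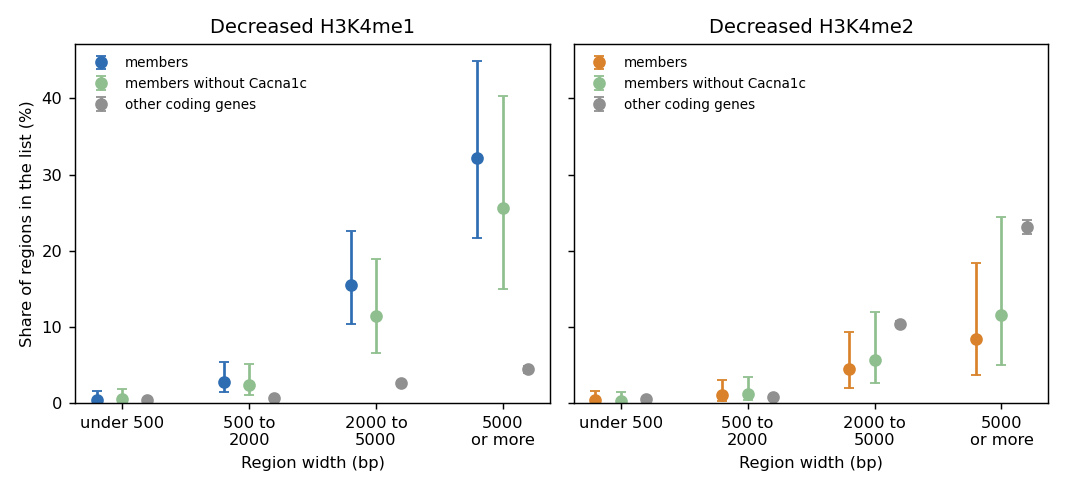
The y axis gives the share (%) of regions in the decreased H3K4me1 list (left) and the decreased H3K4me2 list (right), and the x axis the width of the region in bp, for the 31 members, for the members without *Cacna1c* and for other coding genes, with points for shares and bars for 95% Wilson intervals. At 5000 bp or more the members stand at 32.2% and the other genes at 4.45% for H3K4me1, and at 8.47% and 23.1% for H3K4me2.

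The place of the decreased regions was counted for each mark. Of the 50 decreased H3K4me1 regions, 38 were intronic, 6 held a TSS of the gene, 3 touched an exon without a TSS, 2 held a TSS of another gene and 1 lay outside the body. Most member regions were intronic whether decreased or not, 742 of all 916, and 47 of the 916 held a TSS of the gene. Their median width was 4130 bp (240 to 21580), and the median distance from their centre to the nearest TSS of the gene was 42.4 kb. *Cacna1c* supplied 19 of these 50 regions, at distances of 4.17 to 184 kb, and the median was not taken without it. Of the 16 decreased H3K4me2 regions, 8 held a TSS of the gene, 6 were intronic and 2 held a TSS of another gene, with a median width of 3050 bp (60 to 21580) and a median distance of 6.72 kb. The 853 member regions in neither list had a median width of 480 bp.

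**Figure D3:**
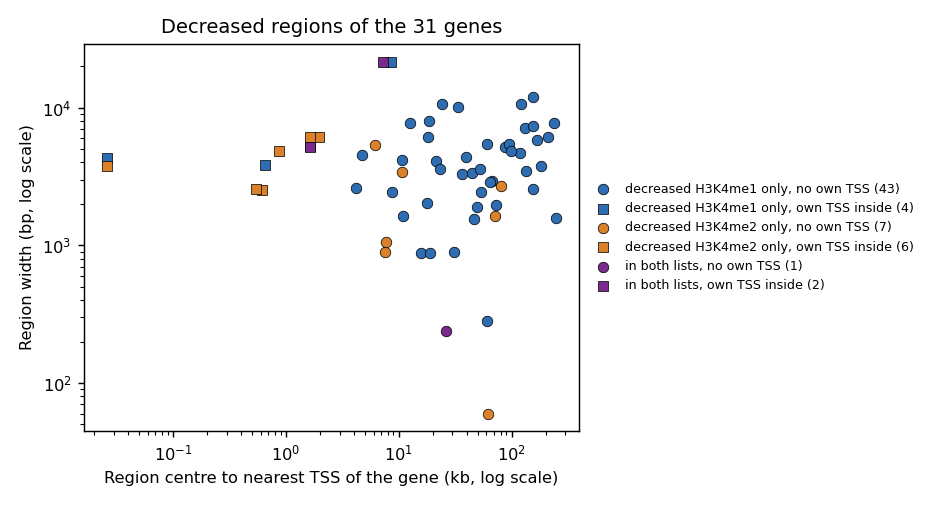
Each point is 1 of the 63 decreased regions of the 31 genes, with the distance of its centre from the nearest TSS of the gene on the x axis (kb, log scale) and its width on the y axis (bp, log scale), coloured by list, with squares where the region holds a TSS of the gene. Squares of the H3K4me2 list sit at the left, within a few kb of a TSS, and most circles of the H3K4me1 list sit from 10 to 249 kb away.

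A TSS lay inside a decreased H3K4me2 region in 8 members, or 25.8% (13.7 to 43.3), near the 29.2% of all coding genes with a TSS in a merged region. They were *Cacna1d*, *Cacnb2*, *Cacna2d1*, *Kcnh2*, *Kcnd2*, *Kcnj8*, *Kcnj11* and *Trpm7*, and in 7 of them the region covered the 5′ end, *Cacnb2* being the exception. Among other coding genes with a like width of regions over their TSS the share was 37.8%. A TSS lay inside a decreased H3K4me1 region in *Cacna1h*, *Kcnh2*, *Kcne1* and *Kcnj11*, 12.9% of the members (5.13 to 28.9) against 1.29% of all coding genes and 2.54% of genes of like width.

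Sodium current was represented by *Scn4b*, an accessory beta subunit of the sodium channel. It had 4 regions over 5880 bp. Its decreased H3K4me2 region was intronic (intron 1, 900 bp, chr9:44953646-44954545), and the 4360 bp region over its TSS was in neither list.

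Among the calcium channel genes, *Cacna1c*, the pore of the main L-type channel of ventricular muscle, had the most decreased regions. Its body spans 603936 bp (chr6:118542314-119146249, minus strand) and held 143 regions, of which 19 had decreased H3K4me1. All 19 lay in introns, 16 in the third intron of transcript Cacna1c-204, which is 272.3 kb long, and 3 in the first. Of the 20025 coding genes with a region, 1 gene model had more, Gm20388 with 27 of its 1040 regions, and the next after *Cacna1c* was *Prdm16* with 12 of 81, both named after their values were seen. The 4 widest were 11980 bp (chr6:118985206-118997185), 10640 bp (chr6:119019806-119030445), 10560 bp (chr6:118749146-118759705) and 7140 bp (chr6:119011926-119019065), and the other 15 were 880 to 5800 bp wide. One of these, chr6:118783346-118785765, also held the TSS of an annotated U6 RNA.

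The 19 regions stretched over 315.7 kb, of which merged regions covered 66.8%. Of the 46 regions of the gene that were 2000 bp or wider, 17 had decreased H3K4me1. The widest region of the gene, 15140 bp, and the 13440 bp region over its 5′ end were in neither list. Both also held a TSS of the coding gene *Dcp1b*, so neither belongs to *Cacna1c* alone. The decreased H3K4me2 region of *Cacna1c* was the 60 bp region in intron 13 printed above, 506.5 kb from the 5′ end, and no region of the gene was in both lists. In base composition, the 19 regions had a median of 48.1% G or C, and the 50 other *Cacna1c* regions at least as wide as the narrowest of them, 880 bp, had 46.8%.

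**Figure D4:**
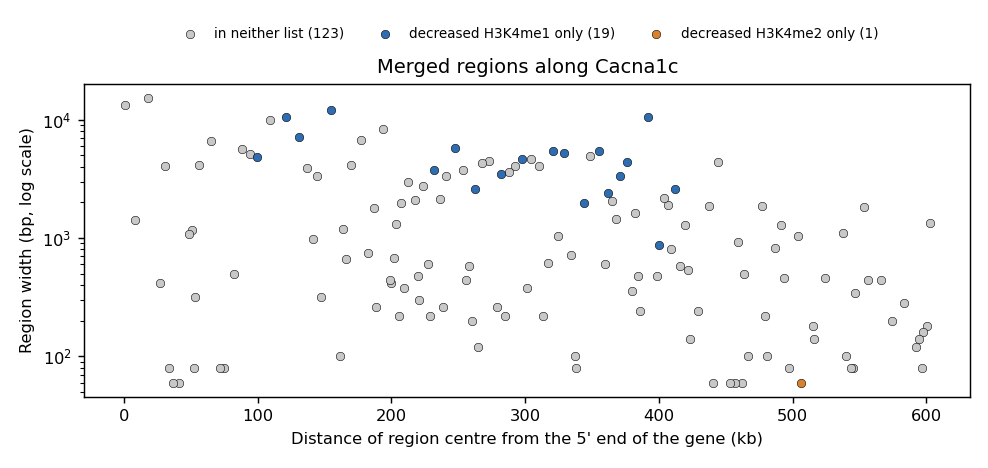
Each point is 1 of the 143 merged regions of *Cacna1c*, with the distance of its centre from the 5′ end of the gene on the x axis (kb) and its width on the y axis (bp, log scale), coloured by list. The 19 regions with decreased H3K4me1 run from 99.7 to 411.7 kb, the wide regions nearer the 5′ end are grey, and the 1 region with decreased H3K4me2 is the narrow point at 506.5 kb.

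*Cacna1d*, the L-type pore of the sinoatrial node and atria, had 109 regions over 107.6 kb and 2 calls of each mark. Decreased H3K4me1 was found in the third intron (2040 bp, chr14:31147726-31149765) and in the first (280 bp, printed above). Decreased H3K4me2 covered its 5′ end (2520 bp, chr14:31302466-31304985) and a region of intron 1 (3420 bp, chr14:31292006-31295425). Both of these also lay in the window of *Dcp1a*, and the second held the *Dcp1a* TSS, so the calls cannot be given to 1 gene.

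*Cacna1h* and *Cacna1g* make T-type channels, which carry low-voltage calcium current. In *Cacna1h* 3 of 7 regions had decreased H3K4me1, a 21440 bp region over the 5′ end (chr17:25550846-25572285) and regions of 7960 bp (chr17:25540906-25548865) and 4160 bp (chr17:25535046-25539205) in intron 2, together 96.7% of the marked width of the gene. *Cacna1g* had 17 regions over 45.3 kb, and none of them was in a decreased list.

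Among the auxiliary subunits, which carry the calcium channel to the membrane and tune it, all 3 had decreased H3K4me1. *Cacna2d2* had 4 such regions of 33, of 10080 bp (chr9:107330626-107340705), 4100 bp (chr9:107321726-107325825), 3600 bp (chr9:107354026-107357625) and 3300 bp (chr9:107369886-107373185), all in its first 3 introns, and the widest also held the TSS of the gene model Gm17141. It had no decreased H3K4me2 region. *Cacnb2* had 1 decreased H3K4me1 region (1560 bp, chr2:14637346-14638905) and 2 decreased H3K4me2 regions, one intronic (1620 bp, chr2:14597506-14599125) and one of 4800 bp (chr2:14742446-14747245) over an internal TSS 218.9 kb into the gene, while the 8900 bp region over its 5′ end was in neither list. *Cacna2d1* had decreased H3K4me2 over its 5′ end (3780 bp, chr5:15438866-15442645), in a region that also held the TSS of Gm3510, and decreased H3K4me1 in intron 4 (1580 bp, chr5:15688646-15690225).

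Of the delayed rectifier genes, which repolarize the muscle cell, *Kcnh2* makes the pore of the rapid current. It had 5 regions, and 3 of them, with 94.4% of the marked width, had decreased H3K4me1. The widest decreased region of all members, 21580 bp (chr5:23839386-23860965), covered its 5′ end and was also in the decreased H3K4me2 list, and it held the TSS of Gm15589 too. The others, of 4300 bp (chr5:23833286-23837585) and 3820 bp (chr5:23825506-23829325), covered internal TSS of *Kcnh2* and were in the H3K4me1 list only.

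*Kcnq1*, the pore of the slow delayed rectifier, had 75 regions over 147.2 kb, and 5 had decreased H3K4me1. They were 7680 bp (chr7:150569426-150577105), 7360 bp (chr7:150485426-150492785), 6140 bp (chr7:150540706-150546845), 2440 bp (chr7:150324666-150327105) and 1640 bp (chr7:150344826-150346465) wide, and the first 3 lay 195.9 to 280.1 kb from the 5′ end. Its 7600 bp region over the 5′ end was in neither list. *Kcne1*, the beta subunit of the same current, had decreased H3K4me1 over its TSS (5280 bp, chr16:92354846-92360125), 1 of 7 regions. *Kcna5*, the pore of the ultrarapid current, lay wholly inside 1 region of 7940 bp that was in neither list.

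In the transient outward group, which shapes early repolarization, 3 of 143 regions had decreased H3K4me2 and none had decreased H3K4me1. Among regions of other coding genes the shares were 2.69% and 0.913%. *Kcnd2*, a pore gene with 69 regions, had a decreased H3K4me2 region over its 5′ end (2580 bp, chr6:21163666-21166245). *Kcnd3*, the other pore gene, had 2 of 66, both intronic (2680 bp, chr3:105340686-105343365, and 1060 bp, chr3:105463606-105464665). *Kcnip2*, an accessory subunit of these channels, had 8 regions, none of them decreased.

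The inward rectifiers hold the resting potential. *Kcnj12* had 1 decreased H3K4me1 region of 9, just upstream of the gene (4520 bp, chr11:60829026-60833545, centre 4.78 kb from a TSS). *Kcnj2* had 4 regions over 7140 bp and no call. The acetylcholine-gated channels *Kcnj3* and *Kcnj5*, through which the vagus nerve slows the heart, had 19 and 9 regions over 12.3 and 27.3 kb, and none was in a decreased list, including the 11840 bp region over the 5′ end of *Kcnj5*. *Kcnk3*, a background leak channel, had decreased H3K4me1 in intron 1 (6120 bp, chr5:30905546-30911665), 1 of 8 regions, and an unlisted region of 11900 bp over its 5′ end.

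The ATP-sensitive channels couple metabolism to the membrane, and their genes lie as 2 neighbouring pairs of a pore and a sulfonylurea receptor. In both pairs the region over the 5′ end of the pore gene had decreased H3K4me2 and that of the receptor gene did not. The region over the 5′ end of *Abcc8* was 1320 bp wide. In its class of TSS region width 3.88% of the other genes had decreased H3K4me2 over a TSS. The share was 33.6% in the class of *Kcnj11* and 37.75% in that of *Kcnj8* and *Abcc9*. The contrast of pore and receptor genes was not tested. *Kcnj11* lay inside 1 region of 5160 bp (chr7:53351386-53356545) that was in both lists, while its neighbour *Abcc8* had 3 decreased H3K4me1 regions of 20 (2940 bp, chr7:53366506-53369445, 2880 bp, chr7:53370066-53372945, and 880 bp, chr7:53416066-53416945). *Kcnj8* had decreased H3K4me2 in a region of 6140 bp (chr6:142514826-142520965), which held 98.7% of its marked width. Its neighbour *Abcc9* had 32 regions over 29.2 kb, all of them in neither list.

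The pacemaker channel *Hcn4*, the main one of the sinoatrial node, had 4 decreased H3K4me1 regions of 11. They were 7700 bp in intron 1 (chr9:58680046-58687745), 3560 bp and 240 bp in intron 2 (chr9:58692806-58696365 and chr9:58697726-58697965) and 900 bp in intron 3 (chr9:58702066-58702965). The 240 bp region, printed above, was also its only decreased H3K4me2 region, and the 17120 bp region over its TSS was in neither list. *Hcn2* had 6 regions over 14.8 kb and no call.

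Of the connexins, *Gja5*, the gap junction protein of atria and the fast conduction system, had 1 decreased H3K4me1 region of 46, in intron 1 (1900 bp, chr3:96757306-96759205). The body of *Gja5* is 172724 bp in GENCODE vM1 because of a long annotated transcript, and the 2620 bp region over that 5′ end was in neither list. *Gja1*, the main connexin of working ventricular muscle, and *Gjc1*, the connexin of the early heart tube, had 4 regions each, over 9.92 and 14.1 kb, and none was decreased.

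Of the Trp genes, *Trpm7*, a channel fused to a kinase that conducts magnesium and calcium, had decreased H3K4me2 over its 5′ end (6080 bp, chr2:126697186-126703265), 1 of 18 regions. The decreased H3K4me2 region assigned to *Trpm4*, a calcium-activated cation channel, was 5380 bp wide (chr7:52592646-52598025), held the TSS of *Ppfia3*, lay also in the window of *Hrc* and did not cover a *Trpm4* TSS.

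Set out by role, there were 24 decreased H3K4me1 and 3 decreased H3K4me2 regions among 276 of the calcium channel pores, and 0 and 3 among 143 of the transient outward genes. *Cacna1c* alone held 19 of the 24. In the windows of other coding genes 0.913% of regions had decreased H3K4me1 and 2.69% had decreased H3K4me2. The counts of the transient outward genes were close to those shares. Region width, with which the share of calls rose, was not matched between groups. The widest region was 3320 bp in the transient outward genes and 21440 bp in the calcium channel pores. The difference between groups was not tested. Delayed rectifier genes had 9 and 1 of 88 regions, calcium channel auxiliary subunits 6 and 3 of 204, ATP-sensitive channel genes 4 and 2 of 55, pacemaker genes 4 and 1 of 17, and connexins 1 and 0 of 54.

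Promoter base composition, which the choice of genes did not use, was compared next. In the 500 bp around the 5′ end the members had a median of 66.2% G or C (41.4 to 80.2) against 57.2% for the other coding genes. The ratio of observed to expected CG dinucleotides, near 1 where such sites have been kept and far lower in most of the genome, had a median of 0.728 in the members against 0.588. It was 0.773 in the 7 members with decreased H3K4me2 over the 5′ end and 0.717 in the other 24, and the ranges of 0.397 to 1.01 and 0.165 to 0.941 overlapped over most of their length.

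**Figure D5:**
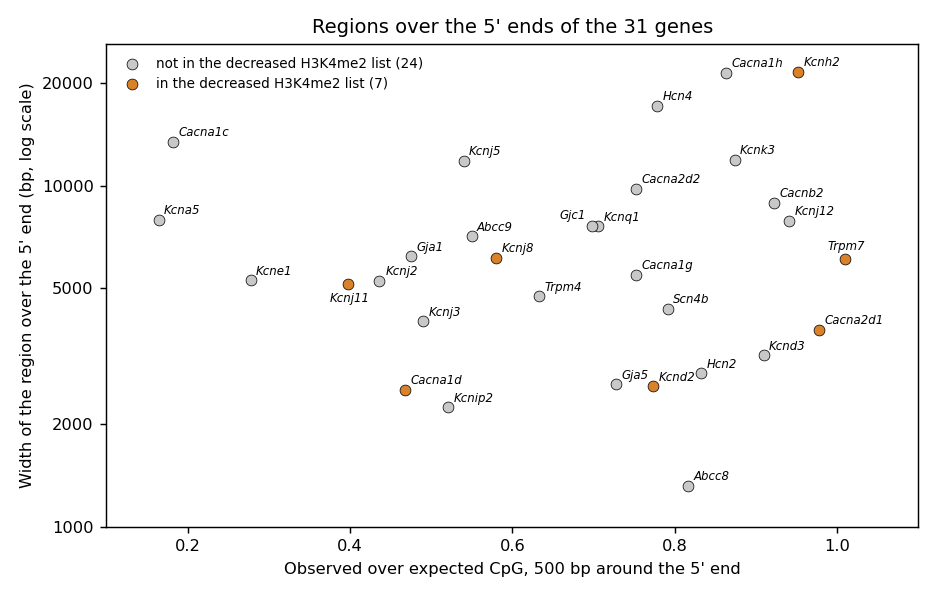
Each point is 1 of the 31 genes, with the ratio of observed to expected CG dinucleotides in the 500 bp around its 5′ end on the x axis and the width of the region over the 5′ end on the y axis (bp, log scale). The 7 orange points, with the region in the decreased H3K4me2 list, lie from 0.397 for *Kcnj11* to 1.01 for *Trpm7* and from 2520 to 21580 bp in width, where the grey points run from 1320 to 21440 bp.

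The same measures were taken over whole regions. The 50 decreased H3K4me1 regions had a median ratio of 0.206 and a median of 50.6% G or C, the 16 decreased H3K4me2 regions 0.350 and 50.3%, and the 419 regions of at least 500 bp in neither list 0.201 and 46.7%. In the 250 bases upstream of the 5′ end, CACCC was present in 22 of the 31 members and in 52.4% of all coding promoters, and an NKX2-5 motif in 4 members and 15.5%. TEAD matched in 4 members (11.4% of all), GATA in 2 (9.33%), T-box in 2 (3.19%) and the TATA box in 1, *Cacna1d* (12.3%). Both strands were searched, and matches of the 2 NKX2-5 forms can overlap, as can those of CACCC with the T-box motif.

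Other genes of the same kinds were counted from a list of 116 channel genes and partner proteins, of which 115 were in the annotation and had a region. Decreased H3K4me1 was found at 13 of the 115, against 7.08% of all coding genes with a region. Decreased H3K4me2 was found at 25, against 28.7%. Their median total region width was 9080 bp, and none had 1 region in both lists, against 0.529%. Among them, named after their values were seen, *Ank3* had 4 decreased H3K4me1 regions and *Cacna1a*, *Cacna1s* and *Nedd4l* had 2 each. *Ank3*, an adaptor that anchors sodium channels, also had 6 decreased H3K4me2 regions of 127. None of the 10 other sodium channel genes on the list had decreased H3K4me1, and 1, *Scn2a1*, had decreased H3K4me2.

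The label of the tissue was checked with marker genes, although a marked promoter does not show that a gene is expressed. All 6 heart muscle markers had a TSS inside a merged region, but so did all 5 endothelial, 3 epicardial, 3 red cell and 4 neural markers, so the lists do not separate cell types. Decreased H3K4me1 was present at 2 heart muscle markers, *Actn2* and *Tnni1*, and 1 endothelial marker, *Pecam1*, and at none of the epicardial, red cell and neural markers. Decreased H3K4me2 was present at *Tnni1* and at the red cell marker *Klf1*, and at none of the endothelial, epicardial and neural markers. The part of cell mixture in the calls at channel genes was not tested. The window of *Kmt2d* itself, listed under its older name *Mll2*, held 11 regions and none was decreased, which does not check the deletion since the lists carry no reads over the floxed exons.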

How the data were processed

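H3K4me1, H3K4me2, H3K4me3 and input libraries of E11.5 hearts were made by the authors. Per the labels, reads were processed with CASAVA 1.8.2, FastQC, Bowtie2, Bowtie and SAMtools on mm9. The authors called peaks, merged them over replicates and marks, and deposited 3 lists of positions, the merged list and the regions of it with decreased H3K4me1 or H3K4me2 in mutant hearts. The peak caller, its settings and the test are not given in the sources used here. The lists hold no counts or scores, so depth is unknown. All 2730 decreased H3K4me1 and 6699 decreased H3K4me2 regions were identical to a merged region. The number of regions in the deposited H3K4me2 list differs from that in the study's text, and the deposited list was used.

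Regions were matched to GENCODE vM1 genes on NCBIM37 (at least 1 bp in the gene body or within 5 kb of a TSS) with Python 3.11.15 and NumPy 2.4.6. Intervals were 95% Wilson intervals (SciPy 1.17.1), and plots used matplotlib 3.10.9. Gene totals were grouped in 10 width classes. A region touching an exon or a TSS of the gene in any transcript was not called intronic, and introns were numbered in the longest coding transcript. Samples were grouped by title, and a test over samples could not be run because the lists hold 1 call per region. The counting was tested on simulated data with known answers. All 31 members are named, with each decreased region, or the 4 widest and the range of the rest. Sequences were read from NCBIM37, without untranslated bases. The members, the other channel genes and the markers were chosen with earlier results of these data known. Windows, width limits, TSS sets and width classes were varied as alternatives. KMT2D ChIP-Exo regions were not analysed here. Results of some listed genes are not reported here.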

Additional observations from a re-analysis of the deposited data

How the results depend on the processing

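Across 9 results, 52 alternative values were computed, and 34 of them stayed close to the reported value, within 1.5 times of a count or median or inside the interval of a share. All 31 members had a TSS in a merged region under every TSS set and width limit tried, 7 to 8 had one in a decreased H3K4me2 region, and 9 to 13 had any decreased H3K4me2 region. With windows of 5 kb around a TSS only, 6 members in place of 15 had decreased H3K4me1, the median total width was 12340 bp, and 6.67% of member regions had decreased H3K4me2, since the bodies of long genes were left out. With regions of at least 500 bp the shares of member regions were 10.02% for H3K4me1 and 2.92% for H3K4me2, and by covered base pair they were 19.6% and 5.24%. Without *Cacna1c* the H3K4me1 share was 4.01%. The share of other genes of like width with decreased H3K4me1, reported as 19.9%, was 16.6% in 5 classes, 12.04% by widest region, 13.4% by number of regions, 12.98% by gene length and 20.7% without regions of more than 1 coding gene, all below the members' 48.4%, and 15 members had a call under the last of these too. For H3K4me2, reported as 45.5%, the first 4 of these were 43.9%, 43.5%, 36.1% and 35.75%, on both sides of the members' 41.9%, and without regions of more than 1 coding gene it was 39.6%, where 11 of the 31 members had a call. The 4 alternatives without *Cacna1c* or by gene length were chosen after seeing the data. No paired analysis was possible because the lists hold no value per pool, and leaving out a replicate could not be run for the same reason. Depth, fold changes and the margin by which a region passed or missed a list are unknown.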
